A study of Mus musculus with 23 samples.

Results

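Crosslinked fragments were followed on 5 abundant mouse mRNAs, Actb, Gapdh, Eef1a1, Eef2 and Hspa8, which are known as strongly translated transcripts with short 3′ untranslated regions. Each gene was given 1 strand-specific window on mouse build mm9, and every distinct alignment (chromosome, start, end and strand, counted once per library) whose midpoint fell in the window was taken. The 5 windows held 362 of the 366484 distinct alignments in 10 libraries, or 0.0988%. No alignment on the opposite strand had its midpoint within the coordinates of these windows. The label was not checked against translation or against 3′ untranslated region length, since ribosome footprints and mRNA-seq were not analysed here and no annotation of mm9 was at hand.

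The series used crosslinking and immunoprecipitation sequencing (CLIP-seq), in which ultraviolet light joins proteins to the RNA they touch and an antibody then recovers protein and RNA together. The cells were v6.5 mouse embryonic stem cells grown on feeder fibroblasts, separated from them by pre-plating and kept off feeders for the last day before irradiation at 254 nm with 400 mJ/cm2. One antibody was a rabbit antibody to Upf1, and the control was normal rabbit IgG. Each antibody had 3 libraries from untreated cells, named A1, A2 and I, and 2 libraries named A1 and A2 from cells given cycloheximide at 100 µg/ml for 2 hours. All 10 libraries came from irradiated cells of this 1 line. Separate cultures are not named in the labels, and each p-value below therefore rests on a spread between libraries that may be technical. Markers of stem cells and of fibroblasts could not be placed without an mm9 annotation, and the cell type was not checked.

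Upf1 is an RNA helicase needed for nonsense-mediated mRNA decay, the pathway that removes transcripts on which translation ends too early or far from the poly(A) tail. Translating ribosomes are known to displace Upf1 from coding sequence, so it accumulates on 3′ untranslated regions, and cycloheximide stalls ribosomes during elongation. Among the 5 genes, Eef1a1 encodes the factor that brings aminoacyl-tRNA to the ribosome and Eef2 the factor that moves the ribosome along by 1 codon. Actb encodes cytoplasmic beta-actin, Hspa8 the constitutive chaperone Hsc70, and Gapdh a glycolytic enzyme.

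The libraries held between 7215 and 97651 distinct alignments, and 3 features of them bear on all 5 genes. The longest common reads reached 34 nt in 3 untreated libraries (A1 and I with Upf1, I with IgG) but 38 nt in the remaining 7, so every library of treated cells had 38 nt reads. Molecules, meaning an alignment with its 2 adapter letters, recurred between libraries: 85.5% of alignments in IgG with cycloheximide had a molecule that was also in another library, against 33.8% in Upf1 with cycloheximide, 16.5% in untreated IgG and 4.37% in untreated Upf1. Here and in all counts of shared alignments, an alignment with several molecules was judged by the first listed. Values without shared molecules instead kept every alignment with at least 1 unshared molecule, so the 2 are not complements. Over all alignments, 48.4% were shorter than 30 nt with cycloheximide and 15.2% without it, and 4.69% and 1.09% were spliced, which here means spanning more than 60 nt. IgG untreated A1 stood apart, with no alignment on Actb, Eef1a1, Eef2 or Gapdh and 5 on Hspa8. The mRNA levels were not analysed, so more crosslinking per transcript and more transcript cannot be told apart in any value below.

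Actb was by far the most covered of the 5 per length. Its window (chromosome 5, 143664700 to 143668500, minus strand) held 177 alignments, or 46.6 per 1000 nt, which ranked 19 among 113969 windows with an alignment. Eef2 (chromosome 10, 80639000 to 80645600, plus strand) held 122, or 18.5 per 1000 nt, at rank 144. Eef1a1 (chromosome 9, 78326000 to 78330000, minus strand) held 26, or 6.5 per 1000 nt, at rank 974, and Hspa8 (chromosome 9, 40608000 to 40613500, plus strand) held 30, or 5.45 per 1000 nt, at rank 1289. Gapdh (chromosome 6, 125111500 to 125116000, minus strand) was the least covered, with 7 alignments, 1.56 per 1000 nt and rank 8184. The windows are genomic and take in introns, and which bases are exon, coding sequence or untranslated region was not assigned. RefSeq (GRCm38.p6) lists named pseudogenes of Actb, Gapdh, Eef1a1 and Eef2, and how reads with more than 1 site were placed is not given in the sources used here, so the counts of these genes are uncertain to that extent.

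**Figure D1:**
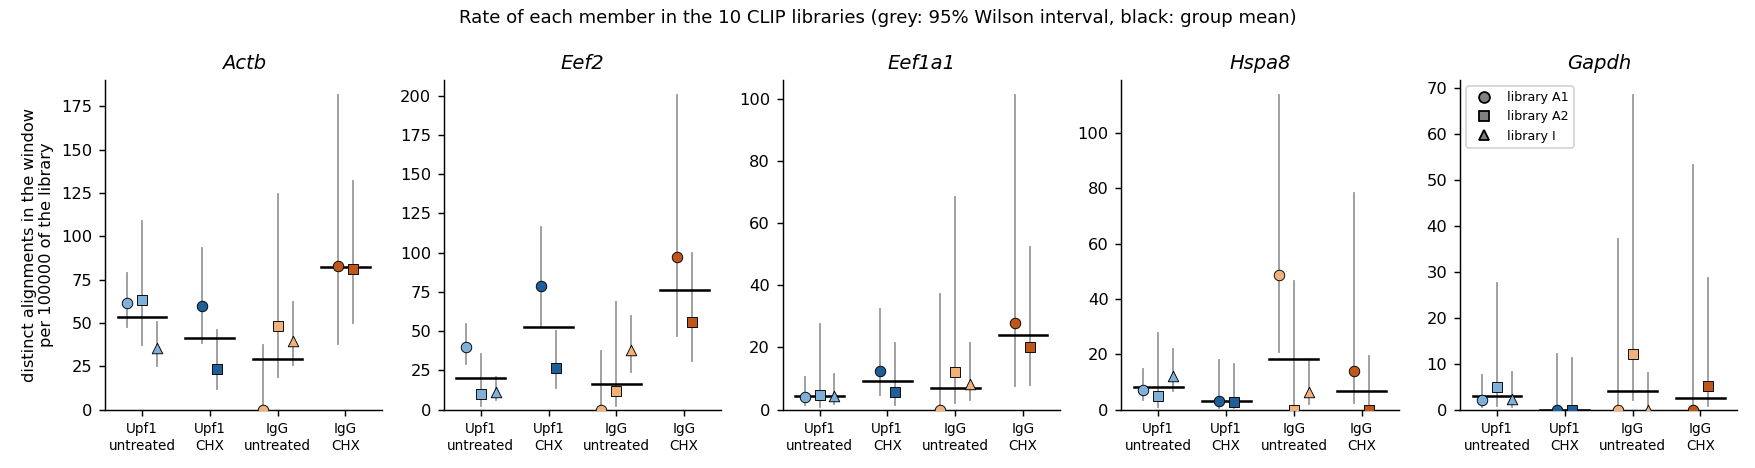
Distinct alignments in each gene's window per 100000 of the library (y axis, linear, scales differ between panels) for the 4 groups (x axis; CHX is cycloheximide). Points are libraries, grey lines their 95% Wilson intervals for counting error and black bars group means; Actb with Upf1 spans 23.4 to 63.6 and overlaps IgG, and Gapdh has at most 2 alignments in any library.

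Eef2 gave the clearest pattern. Without cycloheximide its alignments lay mostly near the 3′ end of the window. With cycloheximide they lay almost wholly upstream of it, with either antibody. The untreated pattern rests on few libraries: in untreated IgG, library I held 18 of 19 alignments and all 11 of those in the last 1000 nt. The untreated libraries of 38 nt reads, Upf1 A2, IgG A1 and IgG A2, held only 2, 0 and 1 Eef2 alignments. In untreated cells 52 of 70 Eef2 alignments (74.3%, 95% Wilson interval 63.0 to 83.1) had their midpoint in the last 1000 nt, and in treated cells 2 of 52 (3.85%, 1.06 to 13.0). The intervals cover counting error only, as the fragments were amplified by PCR. The median distance from the 3′ end of the window was 593.5 nt in untreated Upf1 and 600.5 nt in untreated IgG, against 3240 nt in Upf1 and 3230 nt in IgG with cycloheximide.

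In 100 nt steps from the 5′ end, the most covered step of Eef2 in untreated Upf1 ran from 6000 to 6100 nt and held 16 of 51 alignments. The same step held 3 of 19 in untreated IgG, and 1 each in Upf1 and in IgG with cycloheximide. The treated libraries had their own most covered step from 3300 to 3400 nt, with 8 of 34 alignments in Upf1 and 6 of 18 in IgG, and another from 1800 to 1900 nt with 6 and 4. Both of these steps were empty in all 6 untreated libraries, but they had been picked for their treated counts. The untreated libraries held only 18 Eef2 alignments upstream of the last 1000 nt. An empty untreated step is therefore likely for most choices there, and no gain specific to these positions is concluded. The step from 3300 to 3400 nt drew on 3 libraries and that from 1800 to 1900 nt on all 4 treated libraries. In the former, chromosome 10, 80642364 to 80642391, occurred in Upf1 CHX A1, IgG CHX A1 and IgG CHX A2. In the latter, 80640815 to 80640842 occurred in Upf1 CHX A1, Upf1 CHX A2 and IgG CHX A1. Whether the 2 antibodies recovered these positions independently was not tested.

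**Figure D2:**
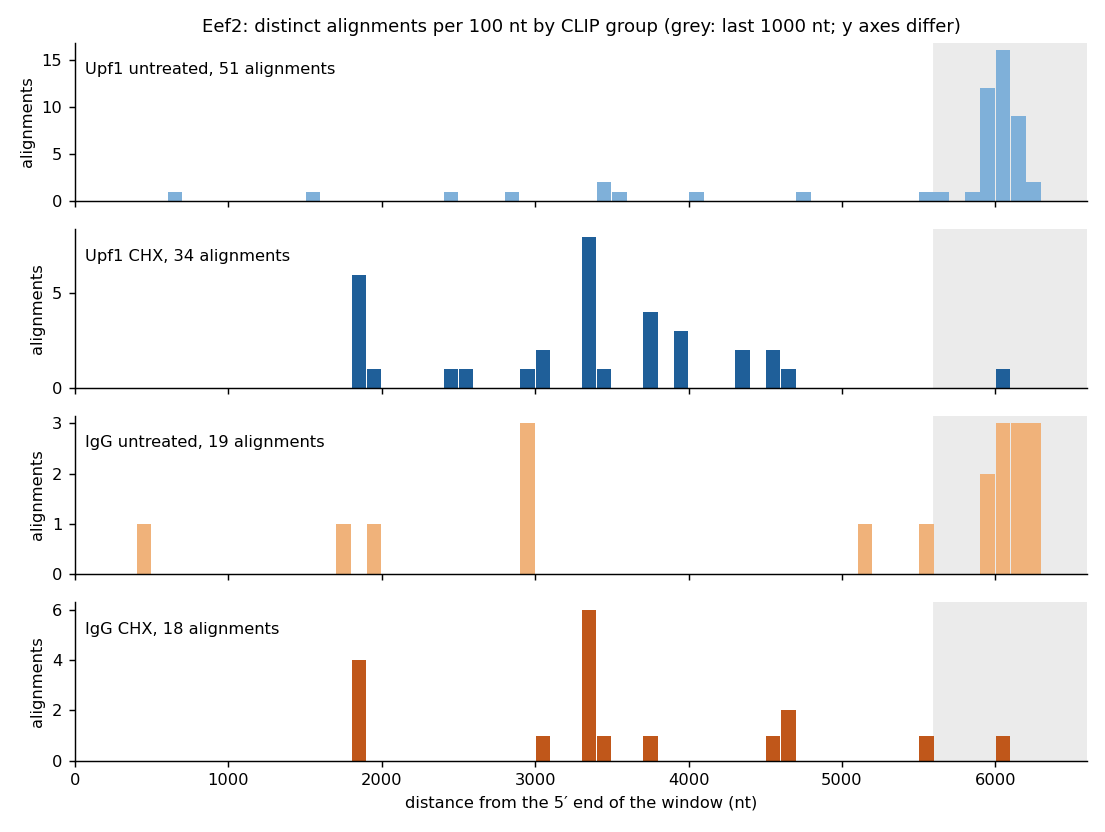
Distinct alignments per 100 nt (y axis, scales differ) along the Eef2 window from its 5′ end (x axis, nt) for the 4 groups, with the last 1000 nt shaded. Untreated Upf1 peaks inside the shaded stretch. Untreated IgG has 11 of 19 alignments in it, all from library I. The 2 cycloheximide (CHX) groups each have 1 alignment in the shaded stretch and peak between 3300 and 3400 nt.

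The rate of Eef2 alignments upstream of the last 1000 nt separated the treatments completely. In untreated Upf1 it was 6.14, 4.89 and 3.36 per 100000 distinct alignments of the library in A1, A2 and I, and in Upf1 with cycloheximide 75.5 in A1 and 26.3 in A2. In untreated IgG it was 0, 12.1 and 14.7 in A1, A2 and I, and in IgG with cycloheximide 97.0 in A1 and 50.7 in A2. The lowest treated library was thus above the highest untreated library. Its mean was 6.86 ± 5.52 in untreated libraries (SD, n = 6) and 62.4 ± 30.6 in treated ones (SD, n = 4; exact two-sided permutation test within antibody, p = 0.01, the smallest this design can give). Within Upf1 and within IgG the groups also did not overlap, and each exact permutation test gave p = 0.1, the smallest possible with 2 libraries against 3. This division of the window was chosen after the profiles had been seen. How often treated and untreated libraries failed to overlap over all windows was not counted, here or for the other genes below. Whether such a separation is unusual in these data is therefore not known.

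At the 3′ end of Eef2 the libraries varied more. The rate in the last 1000 nt was 33.8, 4.89 and 7.85 per 100000 in untreated Upf1 A1, A2 and I and 0, 0 and 23.1 in untreated IgG A1, A2 and I. With cycloheximide it was 3.15 and 0 in Upf1 and 0 and 5.07 in IgG. The means were 11.6 ± 13.8 (SD, n = 6) without and 2.05 ± 2.50 (SD, n = 4) with cycloheximide, and the groups overlapped (exact permutation test, p = 0.31). Within Upf1 both treated libraries lay below every untreated one (means 1.57 and 15.5, exact permutation test, p = 0.4), and within IgG they overlapped. Over both antibodies, all but 1 of the untreated alignments in the last 1000 nt came from the 3 libraries with 34 nt reads. Treatment and read length thus cannot be told apart at this end.

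Averaged over the 9 libraries with any Eef2 alignment, the share in the last 1000 nt was 53.2% without and 3.27% with cycloheximide (exact permutation test, p = 0.05, which did not pass the threshold of 0.05). The difference of -49.9 points passed without shared molecules (-78.8 points, exact permutation p = 0.0333) and without IgG untreated A2 (-63.2 points, exact permutation p = 0.0333), and was -18.3 points for the last 500 nt (exact permutation p = 0.2). In the 7 libraries of 38 nt reads, leaving out the 1 with no Eef2 alignment, the share was 25% without and 3.27% with cycloheximide, from 55 alignments in 6 libraries (exact permutation test, p = 0.333). The upstream rate in those 38 nt libraries was 62.4 per 100000 with and 5.66 without cycloheximide, again with no overlap between treated and untreated libraries (exact permutation test, p = 0.111, where the smallest possible was 0.0556).

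**Figure D3:**
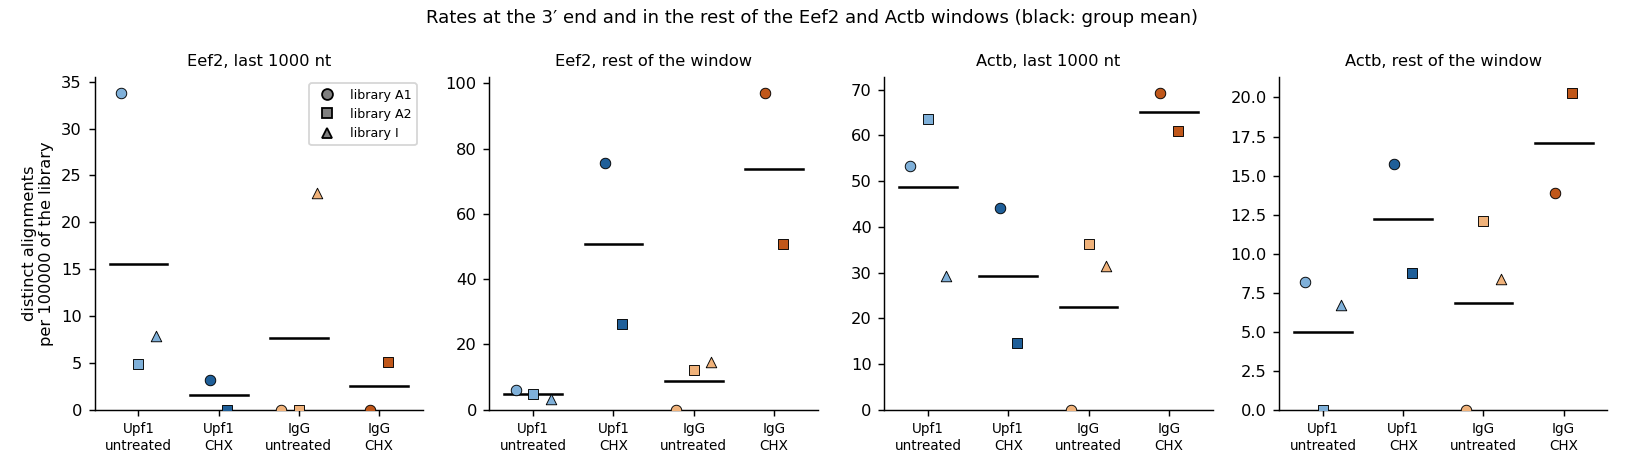
Rates per 100000 distinct alignments of the library (y axis, linear, scales differ) in the last 1000 nt and in the rest of the Eef2 and Actb windows, by group (x axis; CHX is cycloheximide). Points are libraries and black bars group means; for the rest of Eef2 the 4 treated libraries lie between 26.3 and 97.0 and the 6 untreated ones between 0 and 14.7.

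The same contrast was fitted with limma-voom over the whole genome, in 1000 nt segments counted from the 3′ end within the 5 genes and as tiles elsewhere. The 4032 segments tested held at least 10 alignments in all and were present in at least 3 libraries. For cycloheximide over both antibodies 364 (9.03%) passed an adjusted p of 0.05, 290 of them higher. The median log2 change of all segments was -0.32, against which single values should be read. Of the 8 segments of the 5 genes that entered the fit, 3 were higher with cycloheximide and none was lower, and all 3 belonged to Eef2. Each of these 3 reached the filter of 10 through treated libraries alone, where it was high, so their number and adjusted p are given as a description only. With no filter none of the 3 passed (log2 2.15, 2.18 and 2.26 from the 3′ end upstream, limma adjusted p = 0.638 for each).

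The Eef2 segment from 2000 to 3000 nt upstream of the 3′ end held 8, 3, 1 and 1 alignments in the treated libraries (Upf1 A1 and A2, IgG A1 and A2) and 1 in all untreated libraries together, in Upf1 A1. Its log2 change was 2.81 ± 0.70 (SE), with an adjusted p of 0.0027 in limma. The segment from 3000 to 4000 nt held 10, 2, 2 and 6 in the same treated libraries and 7 in the untreated ones, for a log2 change of 2.79 ± 0.73 (SE; limma adjusted p = 0.00425). The segment from 4000 to 5000 nt held 5, 4, 3 and 1 against 3, for 2.77 ± 0.71 (SE; limma adjusted p = 0.00402). In the 38 nt libraries alone the first and the last of these segments missed the threshold (log2 2.32 and 2.63, limma adjusted p = 0.0665 and 0.0525), and without Upf1 CHX A1 the middle one did (2.51, limma adjusted p = 0.0675). The segment at 2000 to 3000 nt fell under the filter without Upf1 CHX A1, which held 8 of its 14 alignments. The untreated alignments of the segments at 3000 to 5000 nt lay in Upf1 A1, Upf1 I and IgG I. The last 1000 nt of Eef2 changed by -1.01 ± 0.66 (SE) and did not pass (limma adjusted p = 0.362), except when IgG untreated A1 was left out, which gave -1.78 with a limma adjusted p of 0.0354.

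Within Upf1 alone, where 223 segments (5.53%) passed, 154 higher and 69 lower, the Eef2 segments at 2000 to 3000 nt and 4000 to 5000 nt rose by 3.93 ± 1.02 and 3.79 ± 1.02 (log2, SE; limma adjusted p = 0.00928 and 0.0122). The segment at 3000 to 4000 nt had 2.99 ± 1.05 (limma adjusted p = 0.0657), and passed without IgG untreated A1 (3.12, limma adjusted p = 0.0153) or IgG untreated I (3.15, limma adjusted p = 0.0363). The filter bears on these segments as above, so their adjusted p is again given as a description only. With library totals in place of trimmed-mean scaling the split over all segments became 83 higher and 134 lower, and the limma adjusted p of these Eef2 segments was 0.0348 and 0.0389. Neither passed in the 38 nt libraries (limma adjusted p = 0.144 and 0.146) or with molecules counted (0.0906 and 0.079). Without Upf1 CHX A2 neither passed (limma adjusted p = 0.197 and 0.274), and without Upf1 CHX A1 the segment at 4000 to 5000 nt was lost at 0.245.

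Within IgG, where 1 segment (0.0248%) passed, the 3 Eef2 segments had log2 changes of 1.91 ± 0.91, 2.57 ± 1.02 and 1.88 ± 0.98 (SE), from the nearest to the farthest from the 3′ end, with limma adjusted p from 0.39 to 0.616. The difference of the cycloheximide change between Upf1 and IgG passed for 0 segments (0%, with 164 at an unadjusted p under 0.05). For the 3 Eef2 segments that difference was 2.02 ± 1.36, 0.42 ± 1.47 and 1.91 ± 1.41 (log2, SE; limma adjusted p from 0.95 to 0.98). A change of Eef2 in Upf1 beyond that in IgG was therefore not detectable at this depth.

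Molecules shared between libraries were frequent among the treated Eef2 alignments: 13 of 34 in Upf1 and 13 of 18 in IgG, against 2 of 51 and 3 of 19 in untreated cells. In the 3 upstream segments, 8 of 13, 7 of 20 and 5 of 13 treated alignments were shared. Without shared molecules the upstream rate differed by 72.4 per 100000 (exact permutation test, p = 0.01). That setting also lowers the library totals: 83.2% and 86.3% of all alignments in IgG CHX A1 and A2 were shared. In these libraries 6 of 7 and 7 of 11 Eef2 alignments were shared, so their rates then rest on few alignments. In the same setting the segments at 3000 to 4000 and 4000 to 5000 nt had log2 changes of 2.4 and 2.81 (limma adjusted p = 0.0333 and 0.00591, subject to the same filter). The segment at 2000 to 3000 nt then fell under the filter and was not tested. Short alignments, under 30 nt, made up 46.2% of Eef2 alignments with and 11.4% without cycloheximide, close to the shares over all alignments, and their part in the position of the Eef2 signal was not tested.

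Over the whole Eef2 window the rate was 39.9, 9.78 and 11.2 per 100000 in untreated Upf1 A1, A2 and I, and 78.6 and 26.3 in treated Upf1 A1 and A2. In IgG it was 0, 12.1 and 37.8 untreated and 97.0 and 55.8 treated. The mean rose from 18.5 ± 16.4 (SD, n = 6) to 64.4 ± 30.5 (SD, n = 4) per 100000 (exact permutation test, p = 0.03), while the highest untreated library lay above the lowest treated one. This call was lost (exact permutation p = 0.05) when any 1 of 7 libraries was left out, namely Upf1 untreated A2 and I, Upf1 CHX A1, IgG untreated A2 and I, and IgG CHX A1 and A2, with differences from 35.1 to 49.8. With every line counted it was lost at an exact permutation p of 0.16. In the genome-wide fit of windows below, Eef2 did not pass.

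Spliced alignments of Eef2 numbered 5 of 122. In treated cells 3 spliced alignments, from Upf1 A1, Upf1 A2 and IgG A1, spanned 111 or 112 nt and shared nearly the same ends (chromosome 10, 80641984 to 80642096). The other 2 came from untreated libraries, IgG I at 80640613 to 80640819 and Upf1 I at 80642528 to 80642646. All 5 lay upstream of the last 1000 nt. RefSeq places the small nucleolar RNA gene Snord37 inside Eef2 on GRCm38.p6, and where that lies on mm9 was not determined.

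Eef1a1, the other elongation factor, had fewer alignments than Eef2, and most stayed near the 3′ end under both treatments. Its rate was 4.10, 4.89 and 4.48 per 100000 in untreated Upf1 A1, A2 and I and 12.6 and 5.85 in treated Upf1 A1 and A2. In IgG it was 0, 12.1 and 8.39 untreated and 27.7 and 20.3 treated. Each treated library of an antibody was above every untreated library of the same antibody, from 1 to 4 alignments in each library that had any. The means were 16.6 ± 9.47 (SD, n = 4) with and 5.66 ± 4.13 (SD, n = 6) without cycloheximide (exact permutation test, p = 0.01, the smallest possible).

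Of the 12 treated Eef1a1 alignments, 10 had a molecule that was also in another library, against 1 of 14 untreated. Without shared molecules the difference was gone, at -0.80 per 100000 (exact permutation test, p = 0.88). It also lost the threshold when Upf1 untreated A1, A2 or I or IgG CHX A1 was left out, with differences from 7.25 to 10.8 per 100000 and exact permutation p from 0.05 to 0.1. In the 38 nt libraries it was 10.9 per 100000 (exact permutation test, p = 0.111).

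The last 1000 nt of the Eef1a1 window held 21 of the 26 alignments, in 9 libraries. The most covered 100 nt step ran from 3000 to 3100 nt from the 5′ end, with 9 alignments, 7 of them in treated cells. Eef1a1 was also the gene with the most spliced alignments, 7 of 26, which all crossed the same stretch (chromosome 9, 78326633 to 78326777, spans of 123 to 137 nt). They came from 5 libraries: Upf1 untreated A2, Upf1 CHX A1, IgG untreated A2, IgG untreated I and IgG CHX A2. Spliced alignments occur in a fragment of processed mRNA, and 3 of these 7 were from untreated cells. The 4 alignments between 600 and 1000 nt from the 5′ end all belonged to untreated Upf1, from libraries A1 and I.

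**Figure D4:**
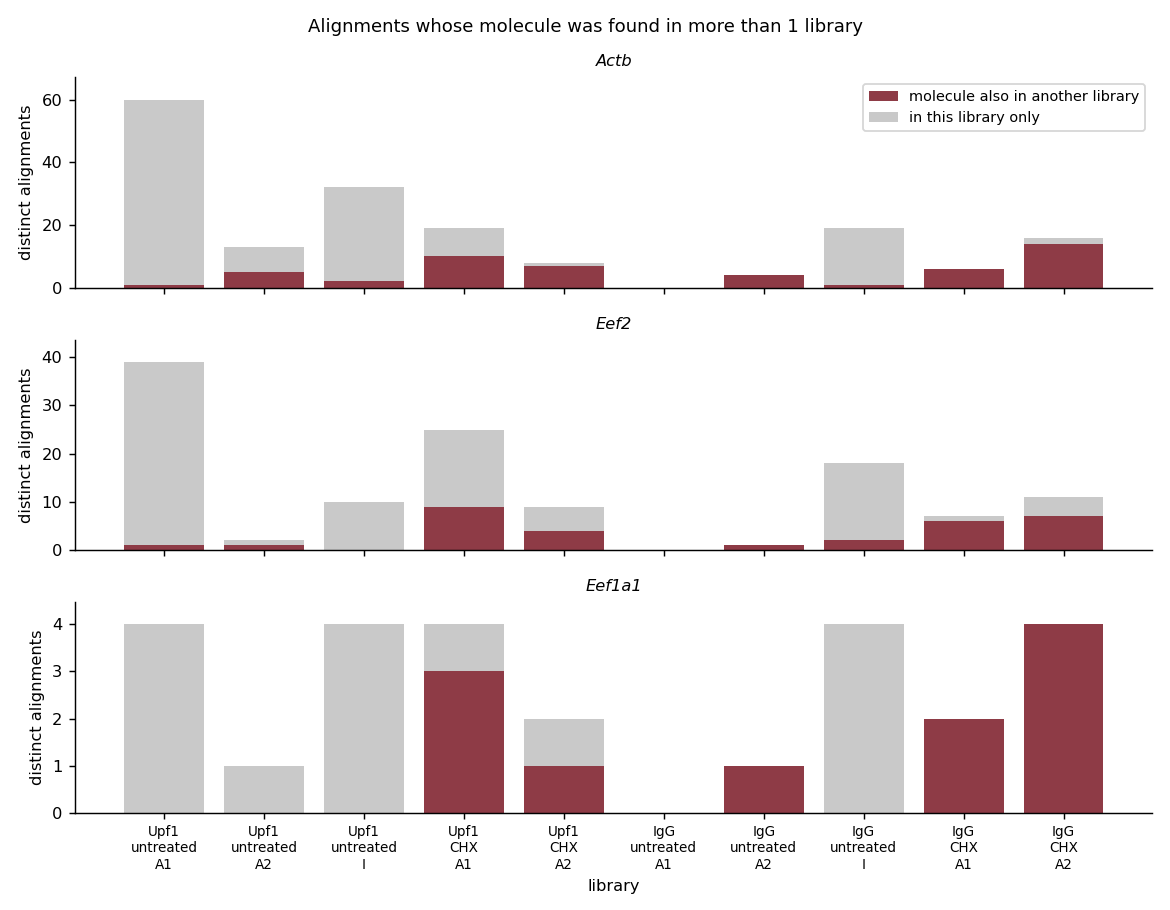
Distinct alignments of Actb, Eef2 and Eef1a1 in each library (y axis, linear; x axis, the 10 libraries; CHX is cycloheximide), divided into those whose molecule was also in another library and those that were not. For Eef1a1 all 6 alignments of the treated IgG libraries were shared, and for Eef2 13 of 34 in treated Upf1.

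Actb, the structural gene of the set, had most of its alignments at the 3′ end with either antibody and either treatment. Its rate was 61.4, 63.6 and 35.9 per 100000 in untreated Upf1 A1, A2 and I, and 59.8 and 23.4 in treated Upf1 A1 and A2. In IgG it was 0, 48.4 and 39.9 in untreated A1, A2 and I and 83.2 and 81.2 in treated A1 and A2. With 0 of 10299 alignments, IgG untreated A1 allows a rate of up to 29.1 per 100000. The Upf1 libraries overlapped between treatments, whereas the treated IgG libraries were both above the untreated ones. Over both antibodies the means were 61.9 ± 27.8 (SD, n = 4) with and 41.5 ± 23.2 (SD, n = 6) without cycloheximide, a difference within the spread (exact permutation test, p = 0.33).

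Of the 177 Actb alignments 145 lay in the last 1000 nt. The share there was 86.7% in untreated Upf1 (91 of 105, Wilson interval 78.9 to 91.9), 70.4% in treated Upf1 (19 of 27, 51.5 to 84.2), 78.3% in untreated IgG (18 of 23, 58.1 to 90.3) and 77.3% in treated IgG (17 of 22, 56.6 to 89.9). Averaged over libraries it was 84.4% without and 73.6% with cycloheximide (exact permutation test over 9 libraries, p = 0.167). This difference of -10.7 points was larger for the last 500 nt, where it passed (-24.7 points, exact permutation p = 0.0167), without shared molecules (-32.9 points, exact permutation p = 0.05) and with every line or molecules counted (-18.7 and -17.9 points, exact permutation p = 0.05 and 0.0667). The median distance from the 3′ end was 361.5 nt in untreated Upf1 and 764 nt in treated Upf1, 506.5 nt in untreated IgG and 779 nt in treated IgG. The step from 3600 to 3700 nt from the 5′ end was the most covered in all 4 groups, tied with 3000 to 3100 nt in treated IgG and with 3200 to 3300 nt in untreated IgG. It held 52 alignments from 9 libraries.

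**Figure D5:**
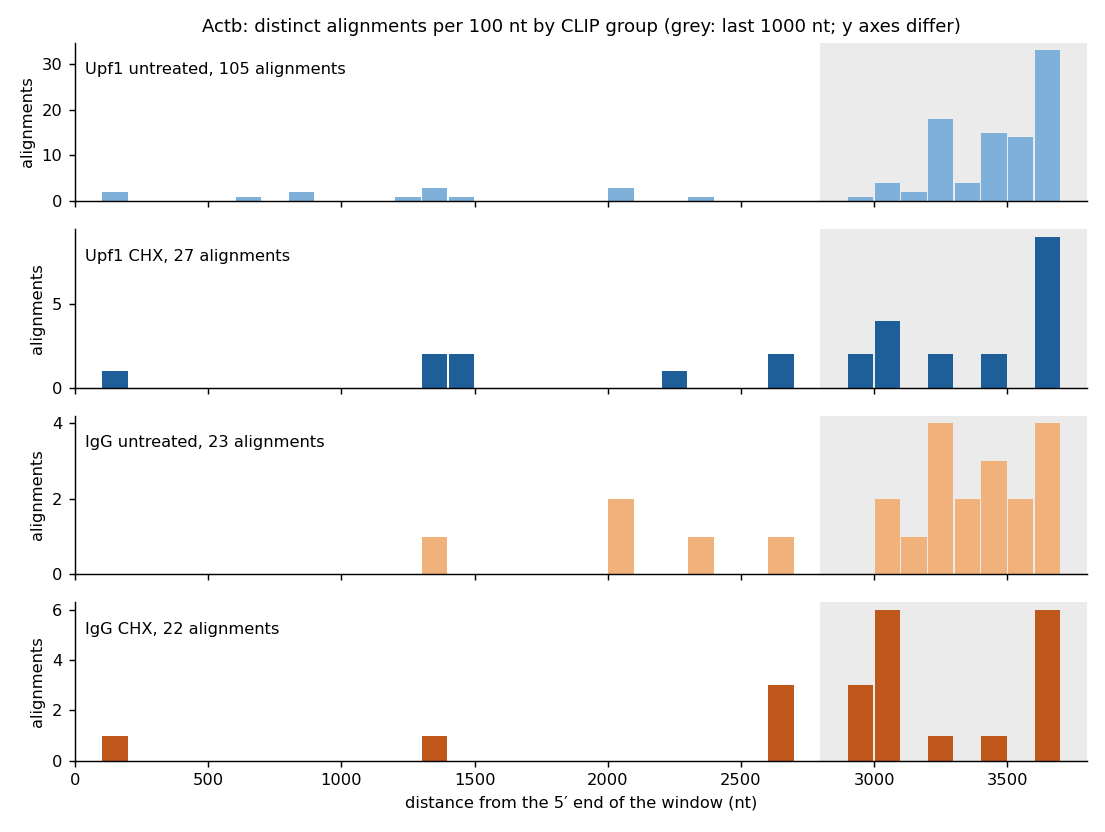
Distinct alignments per 100 nt (y axis, scales differ) along the Actb window from its 5′ end (x axis, nt) for the 4 groups, with the last 1000 nt shaded. All 4 groups have most alignments inside the shaded stretch, and untreated Upf1 has 33 of its 105 between 3600 and 3700 nt.

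Upstream of the last 1000 nt, Actb had 32 alignments. The rate there was 8.19, 0 and 6.73 per 100000 in untreated Upf1 and 15.7 and 8.77 in treated Upf1, 0, 12.1 and 8.39 in untreated IgG and 13.9 and 20.3 in treated IgG. Within each antibody both treated libraries lay above all untreated ones, on 1 to 8 alignments in each library that had any. The means were 14.7 ± 4.77 (SD, n = 4) and 5.90 ± 4.90 (SD, n = 6) (exact permutation test, p = 0.03). The difference of 8.76 missed the threshold in 8 of 16 other settings, among them without shared molecules (11, exact permutation p = 0.1), in the 38 nt libraries (10.6, p = 0.111), and without Upf1 untreated A1, A2 or I, Upf1 CHX A1, or IgG CHX A1 or A2 (6.88 to 9.22, p from 0.05 to 0.1). None of the 3 Actb segments in the genome-wide fit passed for cycloheximide, with log2 changes of 0.45 ± 0.74, 1.21 ± 0.67 and 0.75 ± 0.65 (SE) from the 3′ end upstream (limma adjusted p = 0.71, 0.29 and 0.484).

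Shared molecules made up 37 of the 49 treated Actb alignments and 13 of the 128 untreated ones. Recurrent positions were common: 27 of the 138 distinct Actb positions occurred in more than 1 library. The most widespread, chromosome 5, 143664845 to 143664882, was in 4 libraries, namely Upf1 untreated A2, Upf1 CHX A1, IgG untreated A2 and IgG CHX A1, all with 38 nt reads. Alignments under 30 nt made up 57.1% of Actb with and 19.5% without cycloheximide. Actb had 1 spliced alignment, in Upf1 untreated A1, with a span of 993 nt close to the 5′ end.

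Hspa8 had no comparable concentration. Its 30 alignments fell in 15 of the 56 steps of 100 nt, and 9 lay in the last 1000 nt. The rate was 7.17, 4.89 and 12.3 per 100000 in untreated Upf1 A1, A2 and I and 3.15 and 2.92 in treated Upf1, where each library had 1 alignment. In IgG it was 48.5, 0 and 6.29 in untreated A1, A2 and I, and 13.9 and 0 in treated A1 and A2. The means were 13.2 ± 17.8 (SD, n = 6) without and 4.98 ± 6.09 (SD, n = 4) with cycloheximide (exact permutation test, p = 0.54). Within Upf1 every untreated library was above both treated ones (exact permutation test, p = 0.2).

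IgG untreated A1 decided the mean level of Hspa8 in IgG. Its 5 distinct alignments stood on 328 of the 365 Hspa8 lines in the files, many repeats of few positions. Without that library the cycloheximide difference shrank from -8.22 to -1.16 per 100000 (exact permutation test, p = 0.767), and that between Upf1 and IgG turned from -7.65 to 1.05. RefSeq places Snord14c, Snord14d and Snord14e, which encode small nucleolar RNAs, inside Hspa8 on GRCm38.p6, and reads of these RNAs cannot be told apart here from reads of Hspa8 introns. The most covered step, from 3700 to 3800 nt from the 5′ end, held 6 alignments from 3 untreated libraries. The only spliced alignment of Hspa8 was in Upf1 CHX A2, with a span of 378 nt.

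Gapdh was the gene of the set with the fewest alignments, though its density was above that of 92.8% of the windows with an alignment. It had 2, 1 and 2 alignments in untreated Upf1 A1, A2 and I, 1 in IgG untreated A2, 1 in IgG CHX A2 and none in the other 5 libraries. With 0 of 31792 and 0 of 34220 alignments, treated Upf1 A1 and A2 allow rates of up to 9.44 and 8.77 per 100000, above the 2.05, 4.89 and 2.24 found in untreated Upf1, so no difference was detectable. The means were 3.55 ± 4.56 (SD, n = 6) without and 1.27 ± 2.54 (SD, n = 4) with cycloheximide (exact permutation test, p = 0.52). None of the 7 alignments was spliced and none lay in the last 1000 nt. In 3 of the 5 libraries that had any, 1 alignment sat at the same position, chromosome 6, 125114242 to 125114279.

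With all 10 libraries, no test separated Upf1 from IgG on any of the 5 genes. The mean rate over both treatments was 48.8 ± 18.1 in Upf1 and 50.5 ± 34.2 in IgG for Actb (SD, n = 5 each, exact permutation test within treatment, p = 0.917), and 33.2 ± 28.2 and 40.5 ± 38.4 for Eef2 (p = 0.617, same exact test). For Eef1a1 it was 6.38 ± 3.53 and 13.7 ± 10.7 (exact permutation test, p = 0.117), for Hspa8 6.09 ± 3.88 and 13.7 ± 20.3 (p = 0.617, same exact test) and for Gapdh 1.84 ± 2.02 and 3.43 ± 5.32 (p = 0.6, same exact test). The rates of the 2 antibodies thus overlapped between libraries, but their libraries also shared molecules. Of the molecules in the 5 windows, 12 of 16 in IgG CHX A1 and 17 of 32 in IgG CHX A2 were also in Upf1 CHX A1. For IgG untreated A2, 6 of 8 were also in Upf1 untreated A2. IgG untreated I shared only 2 of 62 with Upf1 untreated A1 and 1 with Upf1 untreated I, and IgG untreated A1 shared none. Whether IgG recovered the shared molecules by itself was not tested. Without IgG untreated A1 the Eef1a1 difference was -10.7 per 100000 (exact permutation test, p = 0.0167), lower in Upf1, and without shared molecules it was 3.82, higher in Upf1.

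In the genome-wide fit of windows, 4 of the 5 genes entered and Gapdh, with 7 alignments, did not pass the filter of 10. For Upf1 against IgG, 0 of 5838 windows (0%) passed in limma-voom, with 132 at an unadjusted p under 0.05 and 0 passing with trended limma. The log2 changes were 1.16 ± 0.78 for Actb, -0.21 ± 0.72 for Eef1a1, 0.71 ± 0.77 for Eef2 and 0.14 ± 0.68 for Hspa8 (SE, limma adjusted p = 0.999 for each). With library totals the median of all windows moved from 0.05 to -0.78, and Eef2 and Hspa8 then had -0.16 and -0.77.

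For cycloheximide over both antibodies 418 windows (7.16%) passed, 364 of them higher, and none of the 4 genes did. Eef2 came nearest, at 1.95 ± 0.80 (log2, SE; limma adjusted p = 0.107), and passed without IgG untreated I (2.36, limma adjusted p = 0.0309). Eef1a1 had 1.25 ± 0.74 (limma adjusted p = 0.301), Actb 0.79 ± 0.80 (0.537) and Hspa8 -0.87 ± 0.68 (0.433). Within Upf1 102 windows (1.75%) passed, 76 higher and 26 lower, or 25 and 49 with library totals, and within IgG 0 passed (0%, 487 at an unadjusted p under 0.05, and 0 with trended limma). The difference between the antibodies passed for 0 windows (0%, 188 unadjusted, and 0 with trended limma). No gene of the set was among these calls.

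Across the 10 libraries the genes did not move as 1 group. The log2 rates of Actb and Eef2 had a Pearson r of 0.739, those of Eef1a1 and Eef2 0.681, and those of Actb and Hspa8 -0.636. These are descriptions over 10 libraries that share molecules and differ in depth. An offset of 0.5 alignments was added before the log2, so where counts are near 0 the log2 rates partly follow library depth. This bears on the tiles below as well. Among 488 tiles of 5000 nt with at least 50 alignments, the 2 most like the mean of the 5 genes were chromosome 6, 67220000 to 67224999 on the plus strand (r = 0.883, 50 alignments) and chromosome 12, 110095000 to 110099999 on the minus strand (r = 0.846, 73 alignments). Neither tile was assigned to a gene.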

How the data were processed

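The 10 CLIP-seq files list alignments on mm9, 1 per line. Bowtie 0.12.6, TopHat 1.4.0 and Cufflinks 1.3.0 appear in the submitters' processing notes, with no role given. In the deposited files the score column is 255 in every line and was not used, and the other column joins a read number, a number of copies and 2 adapter letters. The 10 mRNA-seq and 3 ribosome footprint samples were not analysed here. The 5 genes, their windows and all lists were chosen with earlier results of these data known. The named-gene rule takes the 5 genes whatever their values, and the 2 tiles of at least 50 alignments with the highest r. Distinct alignments were counted once per library, and rates are per 100000 of a library (7215 to 97651). A rate of 0 allows up to 3 alignments. Single rates had exact permutation tests, two-sided, with labels permuted within strata (scipy 1.17.1), 104 tests with the shares included and no adjustment over the genes. Because these are tallies of lines and no count table, limma-voom (limma 3.58.1, R 4.3.3) was used with trimmed-mean scaling (30% and 5%). It was fitted to the 5 windows and 5000 nt tiles elsewhere. The filter asked for at least 10 alignments in all libraries together and presence in at least 3 libraries. Cycloheximide over both antibodies, and Upf1 against IgG, were terms of 1 model. Other contrasts came from a model of the 4 groups. The Benjamini-Hochberg adjustment ran over all windows or segments, with a threshold of 0.05. The 1000 nt segments, the rates outside the last 1000 nt and the shares were chosen after seeing the profiles.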

Additional observations from a re-analysis of the deposited data

How the results depend on the processing

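The 35 single results were recomputed under 584 alternatives in all: 502 kept direction and side of the threshold, 44 lost the threshold, 10 gained it and 28 turned. The upstream rate of Eef2 stayed higher with cycloheximide in all 16 alternatives (44.0 to 72.4 per 100000, exact permutation p from 0.01 to 0.111). The 3 Eef2 segments kept their sign, but none passed with every line counted or with no filter. Values that fell under the filter were Hspa8 and the last 1000 nt of Eef2 in the 38 nt libraries, and the Eef2 segment at 2000 to 3000 nt without shared molecules or without Upf1 CHX A1. For the cycloheximide difference, the 3′ end rate of Eef2 turned to 0.42 in the 38 nt libraries. Actb's 3′ end rate turned to -1.20 with every line counted, -4.27 for 500 nt and -10.4 without shared molecules, and Eef1a1's rate to -0.80 without them. For Upf1 minus IgG, Actb turned to 10.6 with every line counted, 8.69 with molecules counted and 20.1 without shared molecules, and Eef1a1 to 3.82. In log2, Eef1a1 turned to 0.60, 0.16, 0.19 and 0.70 (every line, molecules, no filter, without shared molecules), Eef2 to -0.16 and Hspa8 to -0.77 with library totals, and Hspa8 to -0.060 without shared molecules. Leaving out 1 library gave ranges that cross 0 for Actb (log2 for cycloheximide -0.00078 to 1.25, Upf1 minus IgG -14.3 to 6.46), Eef1a1 (log2 for Upf1 -0.68 to 0.0093), Hspa8 (log2 -0.20 to 0.73, rate -11.1 to 1.05), Eef2 (rate -18.7 to 6.76) and Gapdh (rate -2.46 to 0.57). Counts of calls moved most. For cycloheximide over both antibodies, windows numbered 183 with 10000 nt tiles, 9 in the 38 nt libraries, 239 with library totals, 71 for molecules, 28 without shared molecules, 0 with every line or no filter, and 48 to 781 with 1 library left out. In Upf1 they numbered 3 with 10000 nt tiles, 214 with trended limma, 32 without shared molecules, 0 in the 38 nt libraries, with every line, for molecules or with no filter, and 0 to 489 with 1 library left out. Windows for Upf1 against IgG ranged from 0 to 2 and for IgG from 0 to 1 on leaving out 1 library. Segments over both antibodies numbered 122 in the 38 nt libraries, 49 without shared molecules, 0 with every line or no filter, and 88 to 618 with 1 library left out. In Upf1 they numbered 21 for molecules, 45 without shared molecules, 0 in the 38 nt libraries, with every line or no filter, and 0 to 417 with 1 library left out. With the label A1, A2 or I as a replicate block, 239 windows passed in Upf1 and 489 over both antibodies. Eef2 then passed over both antibodies (log2 2.50, limma adjusted p = 0.0304). Its segment at 3000 to 4000 nt had 3.22 in Upf1 (limma adjusted p = 0.0267). That value is a description only, as the segment reached the filter through treated libraries. Nothing in the labels says that they mark a shared culture or day. Of 13 same-label pairs 7 had a correlation of deviations over 0.1 (median 0.104, lowest -0.0915), against 2 of 24 other pairs (median -0.0613). In a group of 2 libraries the deviations from the group mean mirror each other. Many values of the 2 kinds of pair are thus equal with opposite sign, and the 2 tallies are not independent. Not every same-label pair was over 0.1, so the block is given only here, and some pairing was not excluded. The cause of each turn was not tested. The depth, with at most 60 alignments of a gene in a library, limits every value.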
